A study of Mus musculus with 24 samples.

Results

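The gene for the tumor suppressor p53 (Trp53) and 9 genes that p53 is known to turn on after DNA damage were followed in neonatal mice whose dams breathed nano-sized particulate matter (nPM) or filtered air during pregnancy. The 10 genes were found by their symbols in the deposited gene table, which holds 48709 genes, and each symbol matched 1 gene. The samples were 24 RNA-seq libraries of total RNA depleted of ribosomal RNA, 12 from cerebral cortex and 12 from blood, with 3 libraries for each tissue, exposure and sex. The exposed dams inhaled nPM from gestational day 2 until birth, in sessions of 5 h, 3 times a week. The sample labels give the nPM dose as 300 mg/m3, the age of the pups as 3 to 5 days and the strain as C57BL/6J, where the methods of the study give a dose in μg/m3, an age of 5 days and the strain C57BL/6NJ. The control dams were not exposed to nPM. The labels name no transgene or deletion in either group, and the pups themselves were not exposed after birth. Pups of different litters were used per the methods of the study, but the labels name no litter or animal, so cortex and blood libraries of the same pup could not be matched. The p-values therefore measure the spread between libraries.

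p53 is a transcription factor that is held at a low level in unstressed cells because the ubiquitin ligase Mdm2, itself a p53 target, marks it for degradation. Damage to DNA activates kinases such as Atm and Chek2, which free p53 from Mdm2, so much of the response takes place at the level of protein and is read at the level of RNA through the p53 targets. In the developing brain p53 is known for its part in the death of damaged progenitors and young neurons, and in blood for its control of dividing hematopoietic cells.

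The targets fall into groups by role. Cdkn1a encodes p21, the inhibitor of cyclin-dependent kinases that arrests the cell cycle, and Gadd45a encodes a stress protein linked to growth arrest and DNA repair. Mdm2 and Ccng1, which encodes cyclin G1, belong to the feedback on p53. Bax and Bbc3 encode a mitochondrial pore former and the BH3-only protein Puma, both of which promote apoptosis. Phlda3 encodes an inhibitor of Akt, Sesn2 encodes a sestrin that restrains mTORC1 and oxidative stress, and Trp53inp1 encodes a nuclear protein that assists p53 and takes part in autophagy. In the mm10 build used by the authors, Trp53 lies at chr11:69580359-69591873 on the plus strand, Cdkn1a at chr17:29090979-29100722 on the plus strand and Gadd45a at chr6:67035096-67037457 on the minus strand. Mdm2 lies at chr10:117688888-117710758, Ccng1 at chr11:40748552-40755311 and Sesn2 at chr4:132492032-132510501, all on the minus strand. Bax lies at chr7:45461697-45466898 on the minus strand, Bbc3 at chr7:16308393-16318205, Phlda3 at chr1:135766119-135769136 and Trp53inp1 at chr4:11156431-11174379 on the plus strand.

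The p53 targets among the members are known for the p53 response element, which is built from half-sites of 10 bases. The promoter windows of the members, Trp53 included, were therefore searched for the p53 half-site consensus. The windows run from 250 bases before to 50 bases after a transcript start and come from RefSeq (GRCm38.p6). The consensus reads the same on both strands. Windows were found for 9 of the 10 genes, 12 windows in all. A half-site was found in 6 of the 12 windows, those of 6 different genes, and in 8.36% of the 32851 windows of all genes. Only the upstream Cdkn1a window, of the 12 windows of the members, held a full site, defined as 2 half-sites separated by 0 to 13 bases, and 0.0731% of all windows held one. The stretches around the half-sites are printed for the members that have one, 5′ to 3′ on the strand of the gene, with the half-sites in capitals.
Cdkn1a, chr17:29090876-29090967 (+): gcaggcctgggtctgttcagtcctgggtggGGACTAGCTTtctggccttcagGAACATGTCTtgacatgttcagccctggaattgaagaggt
Gadd45a, chr6:67037408-67037477 (-): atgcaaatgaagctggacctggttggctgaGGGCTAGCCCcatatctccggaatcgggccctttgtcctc
Mdm2, chr10:117710905-117710974 (-): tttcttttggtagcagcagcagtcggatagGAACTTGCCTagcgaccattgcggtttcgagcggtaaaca
Ccng1, chr11:40755432-40755501 (-): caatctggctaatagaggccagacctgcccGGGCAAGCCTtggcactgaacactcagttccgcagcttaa
Bax, chr7:45467060-45467129 (-): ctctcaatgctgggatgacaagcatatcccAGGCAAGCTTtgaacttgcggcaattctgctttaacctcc
Trp53, chr11:69580254-69580323 (+): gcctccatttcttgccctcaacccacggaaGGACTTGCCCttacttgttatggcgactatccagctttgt

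Counted from the transcript start, the Cdkn1a half-sites began at positions -73 and -51. The same stretch held a pair of the letters CATG with 6 bases between them (CATGNNNNNNCATG, which reads the same on both strands), at positions -48 to -35, so the pair overlaps the second half-site. This spacing was found in 0.712% of all windows. Among the members, only the 6 windows with a half-site were searched for it, and no other of these held it. The Gadd45a half-site was nearest to its start among the members, at -40, and those of Mdm2, Ccng1 and Bax lay at -186, -185 and -201. The windows of Bbc3, Sesn2 and Phlda3 held no half-site. Sequence outside the windows was not searched for any member, so a site there would have been missed. A match of letters is a description and was not tested for binding.

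The counts on genes were 22301409 to 33804371 per cortex library and 13595647 to 21895536 per blood library. The labels number the libraries V1 to V24. The labelled tissues were checked against cell markers, given in CPM, the counts of a gene scaled to the counts on all genes. The summed level of 10 neuron markers was 5985 to 6876 CPM in cortex, and in blood it was 1.32 to 35.2 CPM outside 1 library, V2. Red cell markers took 695168 to 791210 CPM of the same 11 blood libraries, and the neuron markers Snap25, Stmn2, Neurod6, Neurod2, Tbr1 and Gad2 were each at 0 in at least 1 of them. V2, a control female, stood apart from the other blood libraries, with counts on 22461 genes where the others had 13254 to 17273 and with 50.1% of its counts on globin genes where the others had 66.2 to 76.8%. The 35.2 CPM of neuron markers was that of V5, an nPM male, which also had the most genes with counts of the 11, 17273 where the other 10 had at most 15712. Its astrocyte and radial glia markers summed to 22.7 CPM and its oligodendrocyte lineage markers to 44.0 CPM, where the other 10 had at most 4.74 and 17.9 CPM. V5 was kept, and values without it are given with the blood results. V2 was left out of the blood comparisons, as 1 blood library was in the study, and is described on its own. In bulk samples of this kind, fewer cells of a type and less RNA per cell cannot be told apart.

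All 10 genes were measured in every cortex library. Levels of different genes were compared as reads per length of gene and library total (RPKM, computed here from the counts and the gene lengths). Ccng1 was highest at 25.9 ± 1.51 RPKM (SD, n = 12), followed by Bax at 20.96 ± 1.22 RPKM. The ranges of these 2 did not overlap with each other or with those of the remaining 8. Mdm2 (6.81), Cdkn1a (6.00), Trp53inp1 (5.17), Bbc3 (4.51), Phlda3 (4.21), Trp53 (2.77) and Sesn2 (2.36) followed, on the RPKM scale, and each neighbour in that order overlapped the next. Gadd45a was lowest at 0.792 ± 0.202 RPKM, below the whole range of Sesn2, with 23 to 69 counts per library. Gadd45a shares 859 bases with E230016M11Rik, a gene on the opposite strand that had 79 to 130 counts per cortex library. Since the strandedness of the libraries is not given in the sources used here, reads of the overlapping stretch cannot be told apart and the cortical level of Gadd45a is uncertain. Bax overlaps Gm45808 and Sesn2 overlaps Gm12981, which had at most 3 and 9 counts per cortex library.

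In cortex, none of the 10 genes passed the test for a difference between nPM and control. Cdkn1a came closest, with a level 1.14 times that of the controls. The other 9 genes had edgeR adjusted p-values of 0.886 to 0.994, and Trp53 itself was at 1.03 times the control level. Differences were tested two-sided in edgeR (quasi-likelihood F), with sex and RNA integrity number (RIN) as covariates and Benjamini-Hochberg adjustment over 20857 genes. At an adjusted p under 0.05 it called 0 of the 10 members, where the percentage of all genes called was 0.0144. limma voom and DESeq2 also called 0 of the 10. At an unadjusted p under 0.05 it found 1 of the 10, where the percentage of all genes was 5.67.

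The Cdkn1a level, in CPM scaled by the TMM factors of the libraries, ran from 11.6 over a median of 12.4 to 13.3 in the 6 control libraries. In the 6 nPM libraries it ran from 12.98 over a median of 13.7 to 16.7. The groups overlapped, and 4 of the 6 nPM libraries lay above all 6 controls, with the nPM females V20 and V11 highest at 16.7 and 15.4. Groups did not overlap at all for 0.197% of the genes tested. The log2 difference was 0.19 ± 0.07 (SE, 95% interval 0.04 to 0.34) (edgeR adjusted p = 0.844). A two-sided exact permutation test of the same levels gave p = 0.0108 before adjustment, as 1 of 20 such tests over members and tissues, where 0.00216 is the smallest p the design allows. The difference was 0.13 on sequencing lane 2 and 0.32 on lane 3 on the log2 scale. Without the nPM female V11 the unadjusted p was over 0.05, and it was under 0.05 in the other 20 of 21 alternative fits, none of which called the gene.

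Markers of other cells were set beside the Cdkn1a values. All 8 markers of proliferating cells had positive differences in the nPM cortex, with a median of 0.19 on the log2 scale against -0.0024 over all genes, and 2 of the 8, Cdk1 and Top2a, had an unadjusted p under 0.05. Their summed level was 79.4 to 128 CPM in controls and 110 to 129 CPM after nPM, and none of the 8 was at 0. All 6 choroid plexus markers also had positive differences, with a median of 0.36 on the log2 scale and none with an unadjusted p under 0.05. Their summed level was 31.7 to 398 CPM in controls and 238 to 514 CPM after nPM, and the 2 libraries with the highest Cdkn1a, V20 and V11, also had the highest sums, 514 and 465 CPM. The control male V14 alone set the low end of the controls for both sums. The next lowest control, V24, was at 93.7 CPM for proliferating cell markers and at 311 CPM for choroid plexus markers. The part of these markers in the Cdkn1a difference was not tested.

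**Figure D1:**
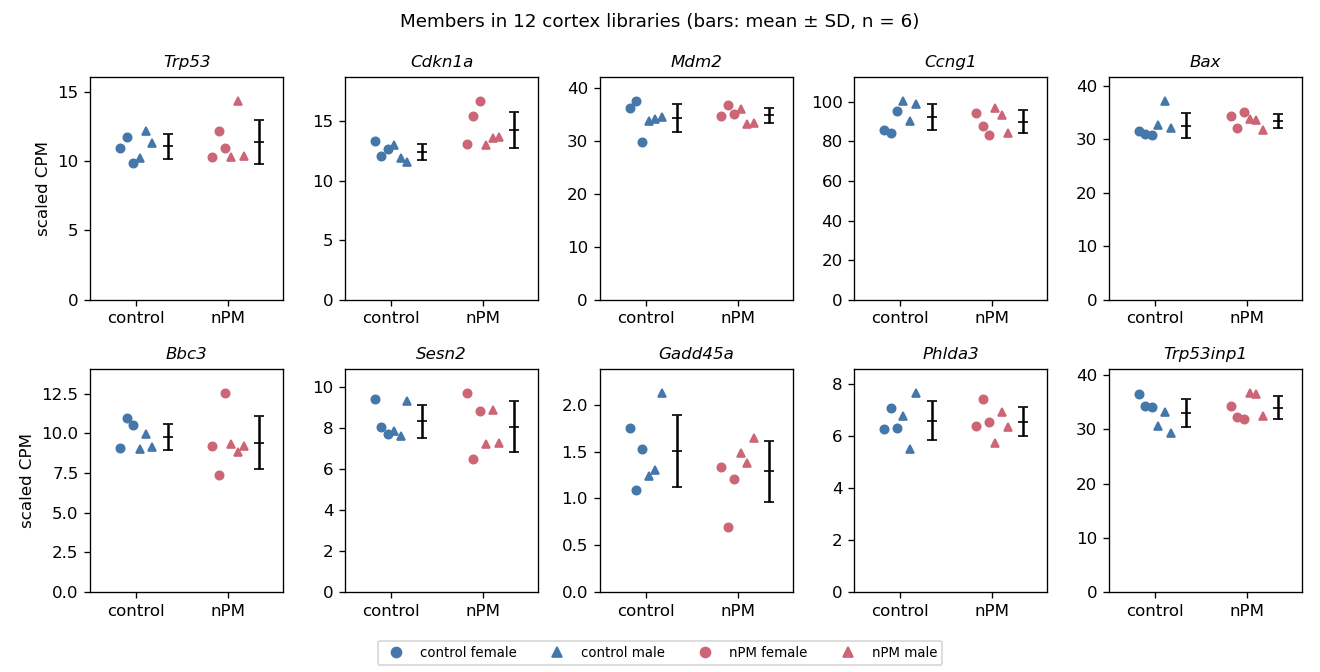
Scaled CPM of the 10 genes in the 12 cortex libraries, one panel per gene, with circles for females, triangles for males and black bars for the mean ± SD of 6 libraries. Cdkn1a is the panel in which 4 of the 6 nPM libraries lie above all controls, and in every panel the groups overlap.

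Gadd45a had the largest difference in size after nPM in cortex, at -0.26 ± 0.20 on the log2 scale (edgeR adjusted p = 0.886). Its scaled level ran from 1.09 over a median of 1.42 to 2.12 CPM in controls and from 0.694 over a median of 1.36 to 1.64 CPM after nPM, so the groups overlapped. Its interval, -0.68 to 0.17, was the widest of the 10. Without the nPM female V11 its difference was -0.15 and that of Cdkn1a 0.16, so the order of these 2 by size rests on that library.

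The feedback genes lay close to the control level. The Mdm2 difference was 0.02 on the log2 scale with a 95% interval of -0.10 to 0.14. For Ccng1 it was -0.04 with an interval of -0.15 to 0.07. These intervals leave room for changes of at most 0.15 on the log2 scale in either direction.

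Neither gene of apoptosis passed the test. The Bax difference was 0.04 with an interval of -0.07 to 0.15 on the log2 scale, and that of Bbc3 was -0.07 with an interval of -0.30 to 0.15. Of Trp53inp1 the difference was 0.04 (interval -0.08 to 0.17), of Sesn2 -0.06 (-0.26 to 0.14), of Phlda3 -0.0077 (-0.22 to 0.21) and of Trp53 0.04 (-0.16 to 0.25). The p-values of these 8 genes do not show that the levels were equal, and their intervals are the limits of what 12 libraries could resolve.

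**Figure D2:**
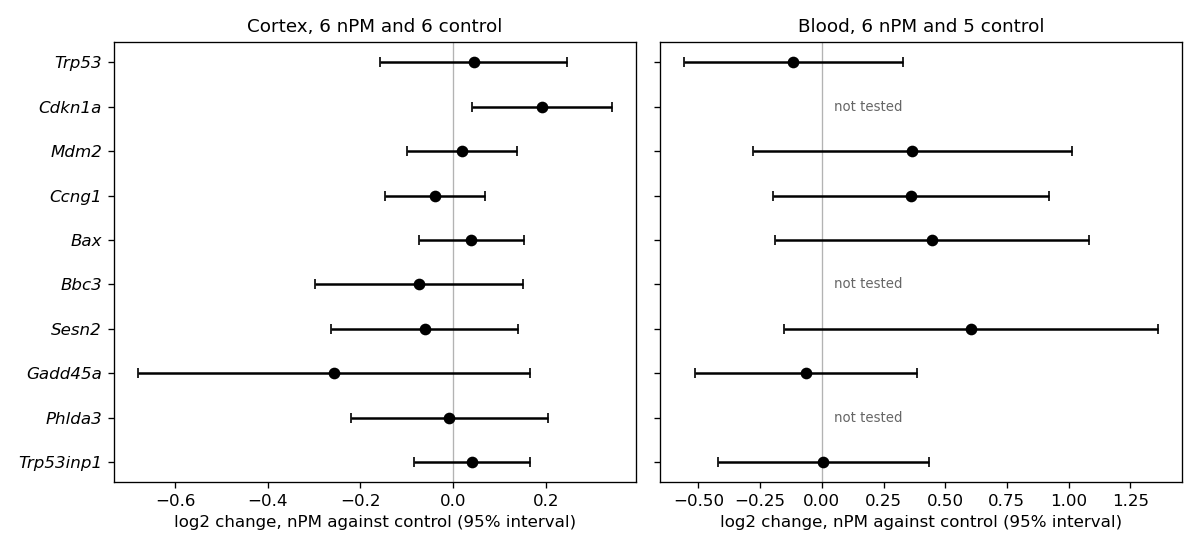
Log2 difference between nPM and control for each gene in cortex and blood, as points with 95% intervals from the edgeR fit. In cortex only the interval of Cdkn1a excludes 0, and in blood the intervals of all 7 tested genes include 0 and are wider.

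When the effect of nPM was allowed to differ between the sexes, 0 of the 10 genes were called in cortex for females, males or the difference between them, and 0% of all genes were. At an unadjusted p under 0.05, 1 of the 10 was found in females (11.8% of all genes), 1 in males (4.56%) and 1 for the interaction (9.68%). In females the gene was Cdkn1a, with a log2 difference of 0.26 ± 0.10 (edgeR adjusted p = 0.345). In males its difference was 0.12 ± 0.10, and the difference between the sexes, -0.13 on the log2 scale with an interval of -0.45 to 0.18, had an edgeR adjusted p = 0.812. Without V20 the difference in females was 0.17, and over the fits that left out 1 library each the edgeR adjusted p ran from 0.264 to 0.752.

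In males, and for the interaction, the gene was Trp53inp1. The scaled levels of the male nPM libraries were 36.6, 36.5 and 32.4 CPM and those of the male controls 30.6, 33.1 and 29.3 CPM. In females they were 34.3, 32.2 and 31.9 CPM after nPM and 36.5, 34.4 and 34.2 CPM in controls. The nPM males were thus above the controls apart from 1 library, V23, and the nPM females below them apart from V9. The log2 difference was 0.17 ± 0.07 in males (edgeR adjusted p = 0.986) and -0.08 ± 0.07 in females (edgeR adjusted p = 0.685). The interaction, males minus females, was 0.26 ± 0.11 (edgeR adjusted p = 0.472). Its unadjusted p was under 0.05 in 15 of 21 alternative fits. Leaving out any 1 of the 6 libraries V13, V14, V15, V19, V20 and V24 took it over 0.05, and its sign was positive in all 21 alternatives.

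Other genes of the pathway were read from lists of 99 genes outside the members. Of the 95 that were tested in cortex, 0 were called, and 6 had an unadjusted p under 0.05, which is 6.32% of them against 5.67% of all genes. The 6 came from 6 different lists, and the edgeR adjusted p of each was 0.862. Among 12 kinases and activators upstream of p53, 1 gene had an unadjusted p under 0.05, Chek1, the kinase of the replication checkpoint, at a log2 difference of 0.27 (adjusted p = 0.862), and the next was Hipk2 at -0.09. Among 7 inhibitors and feedback genes it was Zmat3, an RNA-binding target of p53, at -0.21 (adjusted p = 0.862), followed by the phosphatase Ppm1d at 0.14 (adjusted p = 0.862). The p53 relatives Trp63 and Trp73 differed by -0.33 and 0.14 on the log2 scale, with edgeR adjusted p = 0.910 and adjusted p = 0.933.

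Among 8 further arrest targets, Ckap2, a spindle protein, had a log2 difference of 0.30 (adjusted p = 0.862), and Gtse1, which is active in the G2 phase, had 0.32 (adjusted p = 0.884). Of 11 death targets, Apaf1, the core of the apoptosome, differed by 0.15 (adjusted p = 0.862), and Fas, the death receptor, by 0.57 (adjusted p = 0.884). In the repair list of 6, the bypass polymerase Polh differed by 0.16 (adjusted p = 0.862) and the ribonucleotide reductase subunit Rrm2b by 0.04. The 8 metabolic and redox targets held no p under 0.05, with Gls2 at -0.27 (adjusted p = 0.868) and Trp53inp2 at -0.06. Neither did the 10 tested BCL2 family partners, led by Bcl2l11 at -0.17 (adjusted p = 0.878) and Bcl2l2 at -0.08.

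Among the 10 tested paralogs of the members, Cdkn1c, which encodes the cell cycle inhibitor p57, had a log2 difference of 0.25 (adjusted p = 0.862), and Gadd45b had -0.22 (adjusted p = 0.882). Stress responses that share members with p53 were also read. The 12 ATF4 stress response genes held no unadjusted p under 0.05, with Slc7a11 at 0.13 and Cebpb at 0.47, and neither did the 12 genes induced by glucocorticoids, with Klf9 at -0.16 and Per1 at -0.12. The medians of the 11 lists lay between -0.10 and 0.05 on the log2 scale, and that of all genes was -0.0024.

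The genes whose cortical level was most like that of Cdkn1a over the 12 cortex libraries, among 15697 genes, were Nnat (Pearson r = 0.897, Spearman rho = 0.839), AW551984 (r = 0.879, rho = 0.902) and Nr2f2 (r = 0.860, rho = 0.888). Without V20 and V11, the 2 libraries farthest from the median of Cdkn1a, the 3 values of r were 0.673, 0.745 and 0.752 over 10 libraries. For Trp53 the nearest were Rpl3-ps2 (r = 0.918, rho = 0.811), Sphk1 (r = 0.882, rho = 0.825) and 8430429K09Rik (r = 0.868, rho = 0.867), and without V15 and V16 r was 0.876, 0.671 and 0.723. All points come from libraries that share their depth, lane and exposure between the genes compared, and the 3 were picked as the highest of all genes.

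In blood the members were at a different order of levels. Gadd45a was highest at 41.7 ± 9.36 RPKM (n = 11 libraries without V2), and its range did not overlap with that of any other member. Trp53inp1 (2.34), Ccng1 (2.29), Mdm2 (1.43), Bax (0.666), Trp53 (0.605) and Sesn2 (0.341) followed on the RPKM scale, each overlapping the next. Bbc3, Phlda3 and Cdkn1a were lowest, at 0.107, 0.104 and 0.0883 RPKM. Bbc3 had 0 to 9 counts per library, Phlda3 0 to 7 and Cdkn1a 0 to 12. Where a library had no count, 3 counts were taken as the upper limit, which is 0.137 to 0.221 CPM in these libraries and covers counting error only. The 3 genes were not detected in every library and did not enter the test.

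The plain CPM of the members in 6 control cortex and 5 control blood libraries put the tissues side by side. Gadd45a was at 1.502 ± 0.380 CPM in cortex and at 73.4 ± 25.1 CPM in blood, which is 48.9 times the cortical level. The other 9 members were higher in cortex on this scale. Bax was at 32.5 ± 2.35 CPM in cortex and 0.883 ± 0.370 in blood, and Ccng1 was at 92.1 ± 5.21 and 6.80 ± 1.57 CPM. The nearest to each other were the values of Trp53inp1, at 32.9 ± 3.25 CPM in cortex and 15.2 ± 5.87 CPM in blood. The groups overlapped for none of the 10. This cannot be read as a trait of the members, since the share of all genes without overlap was not computed for this comparison. Scaled by the library total, 89.8% of all genes tested were called higher in cortex and 6.02% lower. A higher level in cortex on this scale therefore does not set the 9 members apart.

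**Figure D3:**
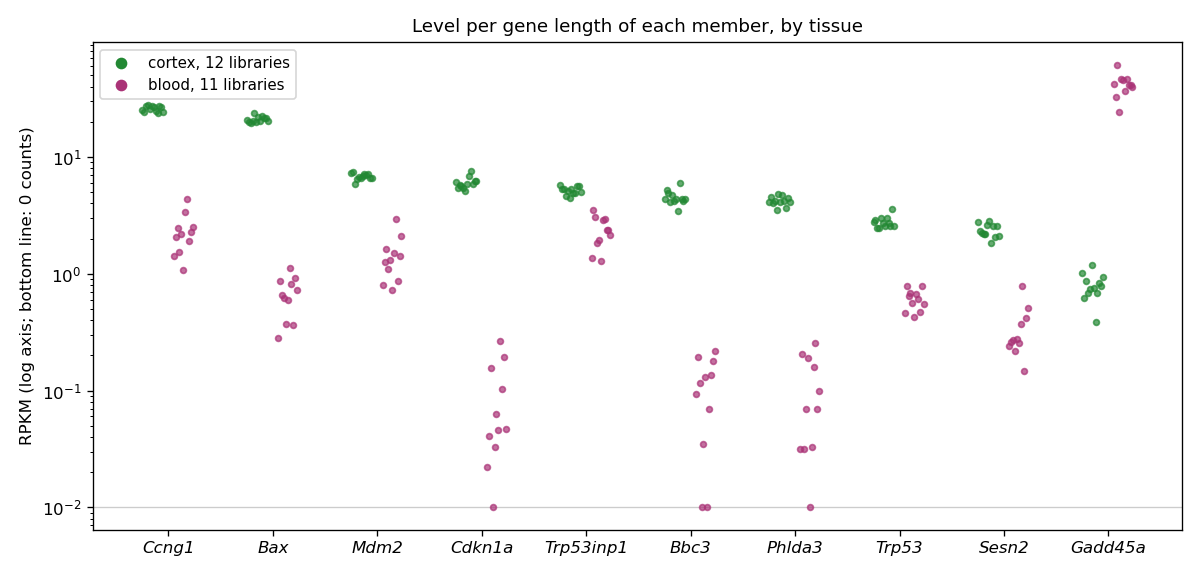
RPKM of each gene in 12 cortex and 11 blood libraries on a log axis, one point per library, with genes in the order of their cortical level and libraries without a count on the bottom line. Gadd45a is lowest of the 10 in cortex, at 0.792, and highest in blood, at 41.7.

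In the fit of control cortex against control blood, 8 members had counts in every library and 8 of 8 were called at an adjusted p under 0.05, where the percentage of all genes called was 86.2. Of all genes, 46.8% were called higher and 39.5% lower in cortex, and with scaling by the library total 89.8% and 6.02%. The direction of 5 of the 8 depended on the scaling. With TMM, Bax (log2 difference 1.05 ± 0.17, edgeR adjusted p = 1.63e-05) and Phlda3 (1.25 ± 0.37, adjusted p = 0.00474) were higher in cortex. Gadd45a was lower in cortex, at -9.71 ± 0.28 on the log2 scale (edgeR adjusted p = 9.48e-15). Trp53, Mdm2, Ccng1, Sesn2 and Trp53inp1 were called lower in cortex with TMM, at -2.01, -1.64, -0.34, -0.89 and -3.00. Scaled by the library total alone, the same 5 were called higher in cortex, at 2.45, 2.83, 4.12, 3.55 and 1.44. The globin share of these control blood libraries was 71.3 to 76.8%. The median of all genes moved from 0.24 to 4.66 between these scalings.

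Relative to that median, the members kept their places under both scalings. Gadd45a lay -9.95 from the median with TMM and -9.89 with the total, on the log2 scale, Trp53inp1 lay -3.24 and -3.23 from it, and Trp53 -2.25 and -2.21. Mdm2, Sesn2 and Ccng1 were also under the median, and Bax, at 0.82 and 0.82, and Phlda3, at 1.01 and 0.85, were above it. With V2 kept, Ccng1 (-0.18) and Phlda3 (0.0024) were no longer called. Gadd45a was lower in cortex in all 22 alternative fits, and the tissue labels, RIN and handling cannot be told apart in this comparison.

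**Figure D4:**
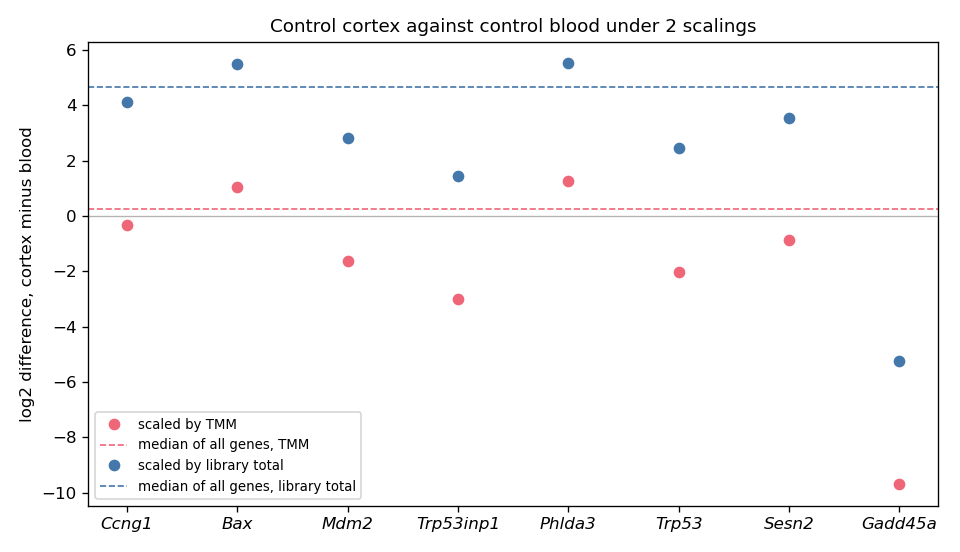
Log2 difference, control cortex minus control blood, of the 8 tested genes with TMM scaling (red) and with scaling by the library total (blue), with dashed lines at the median of all genes under each. The 5 genes from Trp53inp1 at -3.00 to Ccng1 at -0.34 turn positive under the library total, and Gadd45a stays negative under both, at -9.71 and -5.23.

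In blood, none of the 7 tested members passed the test for nPM against control, and no gene of the 9977 tested did (0%). At an unadjusted p under 0.05 there were 0 of the 7 members, where the percentage of all genes was 3.11. limma voom and DESeq2 called 0 members as well. Mdm2, Ccng1, Bax and Sesn2 had positive differences, Trp53 and Gadd45a negative ones, and Trp53inp1 was at 0.01 on the log2 scale. All 7 intervals included 0.

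Sesn2 had the largest difference, at 0.60 ± 0.36 on the log2 scale (interval -0.15 to 1.36, edgeR adjusted p = 0.9996). Its scaled level was 0.968, 0.717, 0.850, 0.991 and 1.02 CPM in the 5 control libraries and ran from 0.460 over a median of 1.26 to 2.71 CPM in the 6 nPM libraries. Of these 6, 4 lay above all controls and 1 below them, and the highest was the female V3. The exact permutation test gave p = 0.294. Groups did not overlap for 0.221% of all genes in blood.

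Bax differed by 0.45 ± 0.30 on the log2 scale, Mdm2 by 0.37 ± 0.31 and Ccng1 by 0.36 ± 0.27. Without V3 the differences of Mdm2, Ccng1 and Sesn2 were 0.05, 0.10 and 0.35 on the log2 scale, so that of Sesn2 was then smaller than that of Bax (0.37), and without the nPM female V1 that of Bax was 0.75. Mdm2 was at 4.67, 4.98, 7.52, 7.29 and 7.07 scaled CPM in controls and ran from 3.93 over a median of 6.85 to 15.02 after nPM, where V3 was again the highest. V3 was also the highest nPM library for Ccng1, at 15.2 scaled CPM, against 5.69 to 8.25 in controls. The differences of Mdm2, Ccng1 and Sesn2 were 0.55, 0.56 and 0.87 on lane 1 and -0.54, -0.39 and -0.39 on lane 3, so their direction was not the same within lanes. Trp53 differed by -0.12 ± 0.21, Gadd45a by -0.06 ± 0.22 and Trp53inp1 by 0.01 ± 0.20. Without V5, Bax differed by 0.34, Mdm2 by 0.45, Ccng1 by 0.42, Sesn2 by 0.61 and Trp53 by -0.20 on the log2 scale, and no member was called.

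The 3 members that were not tested had too few counts for a difference to be read. Cdkn1a had 1, 2, 7, 0 and 1 counts in the control libraries and 2 to 12 after nPM, with the 12 in V3. At this depth no difference was detectable for Cdkn1a (exact permutation p = 0.0823), Bbc3 (p = 0.608) or Phlda3 (p = 0.716).

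**Figure D5:**
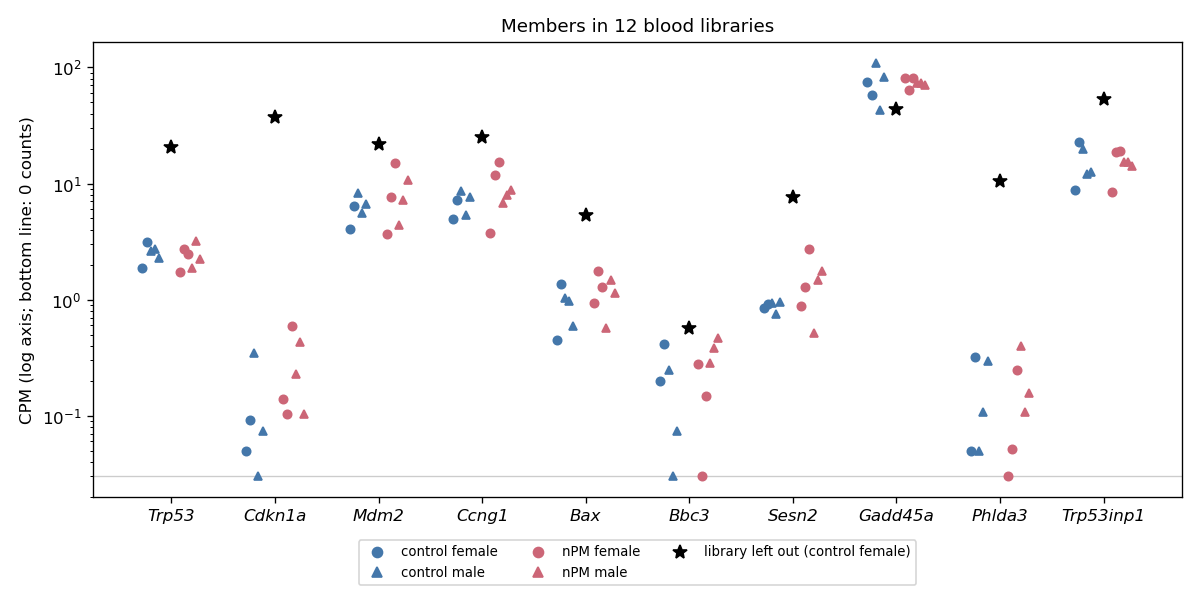
Plain CPM of the 10 genes in the 12 blood libraries on a log axis, circles for females and triangles for males, with libraries without a count on the bottom line and a star for V2, the library left out. Gadd45a is the 1 gene for which the star, at 43.7, lies within the other libraries, and Cdkn1a and Phlda3 are the genes for which it lies farthest above them.

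With the sexes apart, blood females and males each had 0 of 7 members called, against 0.02% of all genes in females and 0% in males, and the interaction had 0 of 7 against 0%. At an unadjusted p under 0.05 the females had 1 of 7 (9.33% of all genes), the males 0 of 7 (4.99%) and the interaction 1 of 7 (10.7%). In females this was Ccng1, at 0.83 ± 0.37 on the log2 scale (edgeR adjusted p = 0.518), and without V3 its difference was 0.05. Over the fits that left out 1 library each, the edgeR adjusted p of Ccng1 in females ran from 0.0659 to 0.999. Mdm2 in females was at 0.88 ± 0.43 and, without V3, at -0.04. Sesn2 had the largest difference of the 7 in females, at 1.01 ± 0.52 (edgeR adjusted p = 0.565), and was at 0.30 without V3. Bax in females was at 0.61 ± 0.45 and, without V3, at 0.42, and Gadd45a was at 0.42 ± 0.29. In males Bax was at 0.30 ± 0.43 and Trp53 at -0.18 ± 0.30, and without V5 they were at 0.06 and -0.37.

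For the interaction it was Gadd45a, the most abundant member in blood. Its scaled level was 92.2, 63.1 and 81.3 CPM in nPM females and 85.8 and 45.3 CPM in control females. In males it was 65.5, 63.2 and 71.3 CPM after nPM and 98.8, 56.5 and 88.3 CPM in controls. The exposure groups overlapped in both sexes, and 1 control of each sex was lower than every nPM library. The interaction, males minus females, was -0.86 ± 0.40 on the log2 scale (edgeR adjusted p = 0.456), and without the control female V4 it was -0.50. Over such fits its edgeR adjusted p ran from 0.268 to 0.964.

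All 7 tested members had a negative interaction in blood, with a median of -0.76 on the log2 scale against 0.08 over all genes. Scaled by the library total, Trp53, Bax and Trp53inp1 turned positive, at 0.27, 0.12 and 0.23, while the median of all genes moved to 0.49. Without V3, 5 of the 7 turned positive, Trp53inp1 at 0.34, Mdm2 at 0.15, Sesn2 at 0.09, Ccng1 at 0.08 and Trp53 at 0.07, and only Bax and Gadd45a stayed negative. Cell markers moved with the same contrast. All 6 platelet markers were lower, each with an unadjusted p under 0.05, with a median of -1.12 on the log2 scale, and all 7 tested red cell markers were negative with a median of -0.56. All 7 tested neutrophil markers and all 7 T and NK cell markers were positive, with medians of 0.88 and 0.91. The summed platelet level was 152 to 274 CPM in controls and 177 to 422 CPM after nPM, none of the 6 markers was at 0, and V3 had the highest sum. The part of these cells in the members' values was not tested.

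Outside the members, 61 of the 99 pathway genes were tested in blood, 0 were called, and 1 had an unadjusted p under 0.05, which is 1.64% of them against 3.11% of all genes. The gene was Apaf1, at 0.49 ± 0.20 on the log2 scale (edgeR adjusted p = 0.9996), and the next of 6 death targets was Ei24 at 0.46. Of the upstream genes Crebbp differed by 0.33 and Chek2 by 0.21. In the list of inhibitors and feedback genes Ppm1d differed by -0.12 and Aen by 0.58, though Aen is a p53 target that promotes apoptosis and no inhibitor. The p53 relatives had too few counts to be tested. Of the arrest targets Btg2 differed by -0.30 and Sfn by -0.38, and of the repair targets Polh by -0.33 and Polk by -0.54.

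In the metabolic list Fdxr, a mitochondrial reductase, had the largest log2 difference at 1.06 ± 0.52 (adjusted p = 0.9996), and Ddit4 differed by 0.38. Bcl2l11 and Mcl1 of the BCL2 family differed by -0.56 and -0.08, and the paralogs Trp53inp2 and Sesn3 by 0.32 and -0.27. The ATF4 genes Atf5 and Psat1 differed by 1.10 and -0.26, and the glucocorticoid genes Sgk1 and Fkbp5 by -0.28 and 0.29. Apart from Apaf1, the pathway genes named for blood all had an unadjusted p over 0.05.

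V2, the control female left out, had members at levels seen in no other blood library. Cdkn1a had 786 counts, or 37.1 CPM (95% Wilson interval 34.6 to 39.8), where the other 11 blood libraries had at most 0.591 CPM and the control cortex 12.4 CPM on average. Phlda3 had 10.6 CPM (9.28 to 12.1) against at most 0.400 CPM, and Trp53 had 20.7 CPM (18.8 to 22.7) against at most 3.20 CPM. Sesn2, at 7.65 CPM, was 2.83 times the highest of the others, Bax 3.05 times, Trp53inp1 2.33 times, Ccng1 1.65 times, Mdm2 1.45 times and Bbc3 1.22 times. Gadd45a alone was not, at 43.7 CPM, or 0.596 times the median of the others.

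The members were not set apart by this. Of the 10 members, 9 were above the highest of the other blood libraries in V2, but so were 81.6% of 18412 genes with at least 10 counts in blood, and the median log2 ratio of V2 to the others was 2.07 over the members and 3.69 over those genes. The non-globin share was 49.9% in V2 and 23.2 to 33.8% in the others. Cdkn1a, at a log2 ratio of 8.16, and Phlda3, at 6.29, were above the median of all genes. Of the p53 relatives and targets in the lists, Trp63, Perp and Sfn, which are known for their expression in stratified epithelium, were at 132, 529 and 204 CPM in V2 and at most 0.206, 0.394 and 0.867 CPM in the other blood libraries. Markers of proliferating cells summed to 730 CPM in V2 and to 130 to 254 CPM in the others, with none of the 8 at 0. Neuron markers summed to 80.7 CPM, with Neurod6, Neurod2 and Gad2 at 0. Of 6 endothelium markers, 5 were above the highest of the other libraries in V2, and Slco1a4 was at 0 in V2. The endothelium sum was 33.9 CPM against at most 15.4. Of 6 microglia markers 3 were above the others, with a sum of 42.7 CPM against at most 28.5. Of 6 monocyte markers 1 was above them, with a sum of 51.8 CPM below that of each other library. Astrocyte and radial glia markers summed to 40.2 CPM, oligodendrocyte lineage markers to 61.4 CPM and choroid plexus markers to 28.0 CPM, each above the other libraries. Neutrophil, B cell, T and NK cell, red cell and platelet markers were within or below the range of the other libraries, with 0 genes above the highest of them. Whether these cells account for the levels of the members in V2 was not tested, and V2 is 1 library with no replicate.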

How the data were processed

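Total RNA of 12 cortex and 12 blood samples was sequenced after RiboZero Gold depletion of ribosomal RNA. Per the study's methods and the submitters' processing notes, the authors used FastQC and Trimmomatic on the reads, HISAT2 with mm10 for alignment and featureCounts 1.5.0-p3 with the Gencode M11 annotation for counting. The deposited values are raw counts for 48709 genes, without normalization, and the strandedness is not given in the sources used here. The authors' gene table also holds a mean RPKM over libraries, which was not used. The RPKM printed here were computed from the deposited counts, the authors' gene lengths and the library totals.

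Genes without a 0 in any of the libraries compared were tested after TMM scaling in edgeR 4.0.16 in R 4.3.3 (quasi-likelihood F, two-sided, prior count 0.5), with sex and RIN as covariates. A further fit added the exposure-by-sex term. Control cortex and control blood were compared with sex as covariate, since the RIN of the tissues do not overlap. P-values were adjusted over all genes tested, with calls at 0.05. V2 was left out of blood because its counts were distributed unlike the others, the reason the study gives for leaving out 1 blood library that it does not name. Exact permutation tests were run on scaled log2 CPM. No 2 libraries of a tissue were copies: the smallest chi-square per gene was 7.23 in cortex and 18.2 in blood, and sampling noise would give 1. Wilson intervals and limits for a count of 0 cover counting error only, since amplified reads carry no molecular identifiers here. The scripts were tested on simulated data.

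The 10 members and the 11 pathway and 13 marker lists were chosen with earlier results of these data known. The named genes are the members in every comparison and, of each pathway list, those called or else the 2 with the smallest p in cortex and in blood, plus genes that overlap a member and the 3 genes most like Cdkn1a and Trp53. Perp and Sfn in V2 were named after their values were seen. Cop1 was not found in the gene table. Alternatives were limma 3.58.1 (voom), DESeq2 1.42.0, RLE normalization, other count filters, other covariates, V2 kept and each library left out. Scaling by the library total was added after seeing the data.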

Additional observations from a re-analysis of the deposited data

Results flagged for a closer look

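Within groups of 5 or 6 libraries, 40 groups of member values were examined for a library far from the rest, and 3 had one, where chance alone gives about 1 in 20. Bax in the control cortex library V16 was at 37.2 scaled CPM, above the other 5 controls. Cdkn1a in the control blood library V22 was at 0.313 scaled CPM, from 7 counts, where the other 4 controls had 0 to 2 counts. Trp53 in the control blood library V6 was at 3.61 scaled CPM, above the other 4 controls. In the library left out of the blood comparisons, V2, Cdkn1a was at 37.1 CPM and Phlda3 at 10.6 CPM, each over 10 times the highest of the other blood libraries.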

How the results depend on the processing

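The count of members called was 0 in all 8 comparisons that involve nPM and under every alternative run for them, leave-one-out fits included (0 to 0). For control cortex against control blood it was 8, with 8 to 10 when 1 library was left out, 5 with at least 10 counts in every library, where 6 members remained to be tested and Sesn2 was no longer called (-0.17, edgeR adjusted p = 0.353). Under that filter Ccng1 turned to 0.38. With V2 kept, Ccng1 and Phlda3 were no longer called. Scaled by the library total, Trp53, Mdm2, Ccng1, Sesn2 and Trp53inp1 turned to 2.45, 2.83, 4.12, 3.55 and 1.44 on the log2 scale. The number of all genes called in cortex was 3, 0 with the library total and 185 with at least 1 count in any library, and in blood it was 0 and 28 with that filter. With that filter it went from 0 to 664 in cortex females, 155 in cortex males and 379 for the cortex interaction, and in blood from 2 to 63 in females, from 0 to 58 in males and from 0 to 81 for the interaction, while no member was called. No paired analysis was possible because the labels give no replicate numbers and do not tie libraries of different groups to each other. Depth limits Cdkn1a, Bbc3 and Phlda3 in blood and Gadd45a in cortex, and n limits every comparison.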
